A study of Mus musculus with 2 samples.

Results

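Cardiac fibroblasts, the matrix-producing cells between the muscle fibres of the heart, were followed through 10 marker genes (Pdgfra, Dcn, Lum, Dpt, Tcf21, Gsn, Fn1, Postn, Ddr2 and Cilp) among 55536 annotated mouse genes. The genes were taken by symbol from a list of known markers, by a rule that uses no measured value. The choice was made with earlier results of these data known. RNA came from heart tissue of adult male mice, 8 to 10 months old, of a strain labelled 5xFAD/CAST. 5xFAD mice carry human amyloid precursor protein and presenilin transgenes under a neuronal promoter (Thy1) and model brain amyloid deposition, while CAST is an inbred strain derived from wild mice. The labels give 1 group with 2 libraries, name no control group, and do not say whether each animal carried the transgenes. Both libraries, called library 1 and library 2 after their biological replicate numbers, have their own tissue sample under a shared donor identifier, so their spread may be technical. Expected counts over annotated genes, which are read counts with shared reads split between entries, summed to 39668202 in library 1 and 36926511 in library 2. The chi-square statistic of these counts was 5.35 per degree of freedom over 17131 genes, so the libraries differed by more than sampling noise. Over the 10 marker genes it was 9.18 per degree of freedom. Values below are TPM, which is scaled for gene length and library total, as the mean ± SD over both libraries (n = 2), or per library where 1 is named. Per the deposited readme, a first quantification derives from alignments to the transcriptome, and a second, separate table derives from the reads.

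Fibroblasts lay down and turn over the collagen network of the heart. In the resting adult heart they are recognised by the growth factor receptor Pdgfra, the transcription factor Tcf21, the collagen receptor Ddr2 and collagen-binding matrix proteins such as Dcn, Lum and Dpt. After injury they become activated and make more Fn1, Postn and Cilp, which are matrix components of the healing or fibrotic heart. Gsn, Fn1 and Ddr2 are also made by other heart cells, so their RNA in whole tissue is not that of fibroblasts alone. In bulk tissue, fewer cells of a type and less RNA per cell cannot be told apart.

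The marker genes spanned 358-fold in level, between 222 ± 11.0 TPM for Gsn and 0.620 ± 0.113 TPM for Cilp. At a threshold of 1 TPM in both libraries 9 of the 10 were detected, as were 11650 of all annotated genes, and the exception was Cilp. Gsn and Dcn together made up 82.2% ± 0.688 of the summed TPM of the 10 genes, which was 409 ± 17.6. By counts the 10 genes took 0.0817% of library 1 and 0.0786% of library 2. Their median level was 8.79 ± 0.965 TPM, and 15.5 ± 1.49 when TPM was rescaled without the mitochondrial chromosome, which raised the level of all 10 genes (Gsn to 392 ± 24.8). All 10 had whole-number counts in both libraries, so none of these counts shows a read split with another gene.

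**Figure D1:**
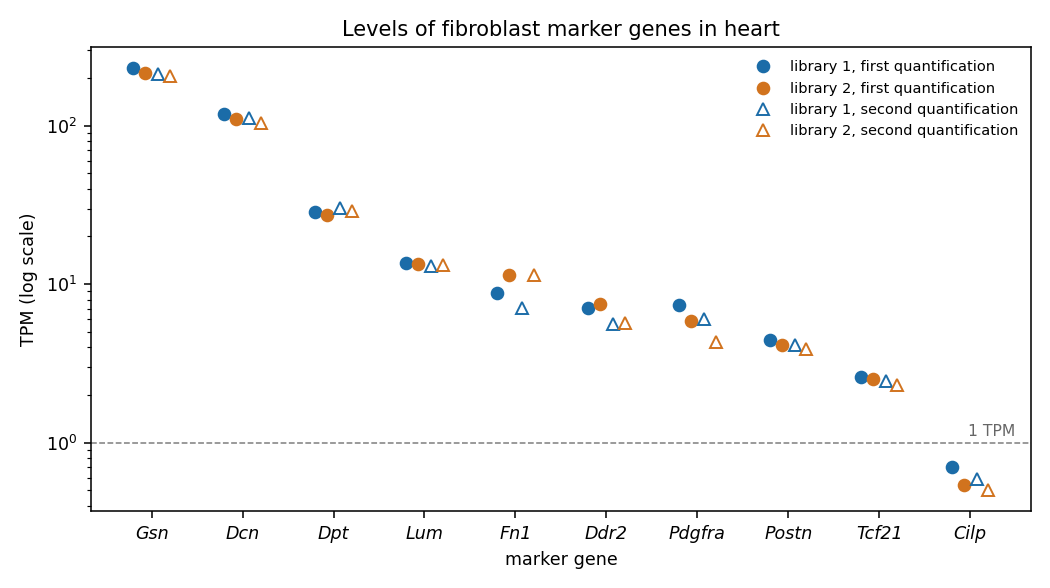
TPM on a log axis for each of the 10 marker genes, ordered by mean level; filled circles are the first quantification, open triangles the second, blue library 1 and orange library 2, and the dashed line is the detection threshold of 1 TPM. Gsn (229.49 TPM in library 1 and 213.98 in library 2, first quantification) and Dcn (118.96 and 110.04 TPM) stand above the rest, and only Cilp lies under the line in every table.

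Among the cytoskeletal and matrix genes at the top, Gsn encodes gelsolin, which severs and caps actin filaments in the presence of calcium. Gsn had 229.49 TPM in library 1 and 213.98 TPM in library 2 (18599 and 16639 counts), and lies on chromosome 2 at 35256380 to 35307892, plus strand (mm10, as are all positions here). Its level exceeded that of 97.9% of the 10754 protein-coding genes detected in both libraries.

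Decorin, the product of Dcn, coats collagen fibrils and limits their diameter. Dcn had 118.96 TPM in library 1 and 110.04 TPM in library 2 (6543 and 5599 counts), above 96.0% of the detected protein-coding genes. Lumican, encoded by Lum, is a fibril-binding proteoglycan of the same small leucine-rich family, and had 13.60 TPM in library 1 and 13.31 TPM in library 2 (1059 and 975 counts). Both genes lie on the plus strand of chromosome 10, Dcn at 97479609 to 97518143 and Lum at 97565128 to 97572703. The gap of 46984 bases between them holds 0 annotated genes. Across these neighbours Dcn stood 8.51 ± 0.339 times as high as Lum, and 8.22 ± 0.451 times by the second quantification. Dermatopontin, encoded by Dpt on chromosome 1 (164796644 to 164824266, plus strand), binds decorin and helps assemble the matrix. Dpt had 28.47 TPM in library 1 and 27.40 TPM in library 2 (1533 and 1388 counts), below Gsn and Dcn and above the others in every table.

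Fibronectin, the product of Fn1 (chromosome 1, 71585520 to 71653200, minus strand), forms matrix fibres to which cells attach through integrins. Fn1 had 8.78 TPM in library 1 and 11.46 TPM in library 2 (1734 and 1937 counts). Periostin, encoded by Postn (chromosome 3, 54361109 to 54391037, plus strand), is a matricellular protein best known from activated fibroblasts. Postn had 4.47 TPM in library 1 and 4.14 TPM in library 2 (431 and 396 counts). Cilp (chromosome 9, 65265180 to 65280605, plus strand) encodes cartilage intermediate layer protein, a matrix protein that also occurs in fibrotic heart. Cilp had 0.70 TPM in library 1 and 0.54 TPM in library 2 (94 and 68 counts), well above a floor of 3 counts but under the detection threshold in both.

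The receptors sat in the middle of the order. Pdgfra (chromosome 5, 75152292 to 75198215, plus strand), a receptor tyrosine kinase for platelet-derived growth factors, had 7.43 TPM in library 1 and 5.84 TPM in library 2 (1039 and 772 counts). Ddr2 (chromosome 1, 169972307 to 170110762, minus strand), a receptor tyrosine kinase that fibrillar collagen activates, had 7.08 TPM in library 1 and 7.48 TPM in library 2 (1276 and 1165 counts). Tcf21 (chromosome 10, 22817281 to 22820174, minus strand) encodes a basic helix-loop-helix transcription factor that epicardial cells need to become fibroblasts. Its level was 2.61 TPM in library 1 and 2.51 TPM in library 2 (102 and 92 counts), above 16.8% of the detected protein-coding genes, so it was detected with few reads.

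Of the 9 neighbouring pairs in the order of levels, 8 had ranges over the libraries that did not overlap in either quantification. The exception was Ddr2 and Pdgfra, whose values overlapped in both tables, and their means stood at a ratio of 1.10 in the first and 1.09 in the second. The narrowest separated pair in the first quantification was Lum over Fn1, with a ratio of means of 1.33. In the second it was Pdgfra over Postn at 1.29. With 2 libraries, a gap between ranges is a description and carries no test.

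Library 2 was set against library 1 to measure how closely the replicates matched, as log2((TPM of library 2 + 1)/(TPM of library 1 + 1)). No gene among the 9 detected markers passed a 2-fold ratio, a rule that 0.603% of the 11940 genes tested did pass. In the second quantification the marker count was again 0, beside 0.816% of 12015 genes. The median log2 ratio of the 9 was -0.05, against -0.01 for all genes tested, and 7 of the 9 were lower in library 2 as scaled by TPM, as were 51.2% of all genes tested. By count share, 9 of the 10 were lower, a count not made over all genes. The median ratio of count shares was 0.973 for the 9 detected markers and 1.01 for all genes tested. Ratios of count shares with exact (Clopper-Pearson) 95% intervals, which cover counting error only, excluded 1 for 4 of the 10.

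Pdgfra was lower in library 2, with a count-share ratio of 0.798 (interval 0.726 to 0.877). Dcn was lower as well, at 0.919 (0.887 to 0.953), as was Gsn, at 0.961 (0.941 to 0.981), although Gsn turned to higher when counts were scaled by spike-ins. Over all genes tested 10.4% had an interval below 1, and genes with as many counts as Gsn have narrow ones. Fn1 was higher in library 2, at 1.20 (1.12 to 1.28), on a side where 12.8% of all genes lay. Its TPM ratio was larger, 1.31 by the first quantification and 1.62 by the second. The estimated length of its transcript mix was 6057 bases in library 1 and 5520 in library 2. For Ddr2 the count-share ratio was 0.981 (0.905 to 1.06) and the TPM ratio 1.06, and its estimated length was 5533 bases in library 1 and 5092 in library 2. The part of length in the TPM ratios of Fn1 and Ddr2 was not tested. Cilp had a ratio of 0.777, but with its few counts the interval ran between 0.560 and 1.07. The credibility bounds on TPM in the authors' deposited table overlapped between libraries for 8 of the 10, a count not made over all genes. They did not overlap for Gsn, with bounds of 218.9 to 229.8 in library 1 and 205.6 to 215.7 in library 2, nor for Dcn, with 114.02 to 119.9 and 104.96 to 111.2 in the authors' deposited table.

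**Figure D2:**
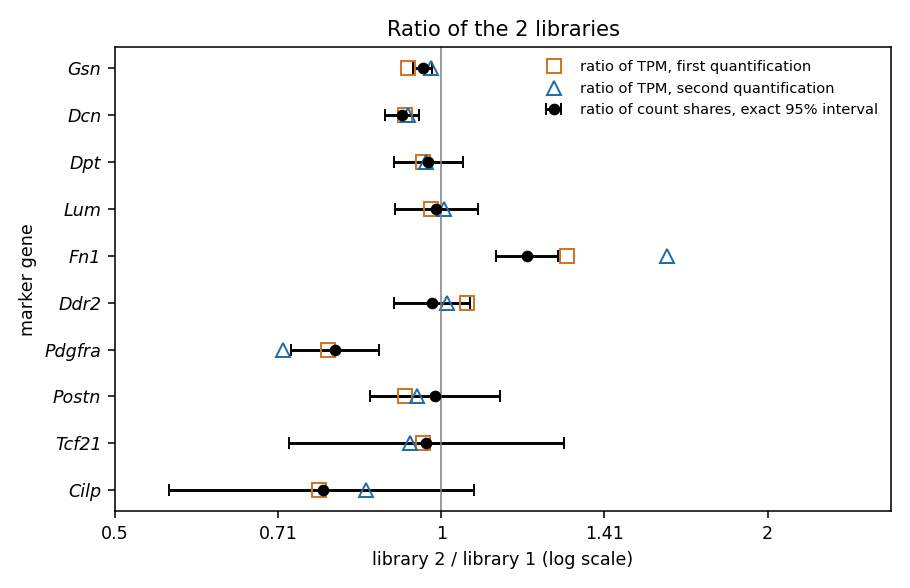
Library 2 over library 1 for each marker gene on a log axis; black circles are ratios of count shares with exact 95% intervals, orange squares are TPM ratios in the first quantification and blue triangles in the second. Fn1 lies right of 1 and Pdgfra left of 1 by every measure, and for Fn1 the TPM ratios of 1.31 and 1.62 lie above the count-share interval of 1.12 to 1.28.

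Markers of another cell type moved between the libraries. The 4 adipocyte markers summed to 9.14 TPM in library 1 and 29.16 TPM in library 2, and 3 of the 4 passed 2-fold. Their part in the ratios of the fibroblast genes was not tested. The 4 endothelial markers summed to 109 TPM in library 1 and 99.2 TPM in library 2. Each was lower in library 2, as were 51.2% of all genes tested. All 4 had a count-share interval below 1, as did 10.4% of all genes tested. Mesothelial markers, from the outer lining of the heart, summed to 13.99 TPM in library 1 and 11.36 TPM in library 2, with 3 of 4 genes detected. Pericyte markers (5 of 5 detected) summed to 186 and 180 TPM, smooth muscle markers (4 of 4) to 58.5 and 53.2 TPM, macrophage markers (5 of 5) to 39.4 and 40.6 TPM, and Schwann cell markers (1 of 4) to 2.48 and 2.16 TPM. None of these marker genes was at 0. Cardiomyocyte markers, which define the labelled tissue, summed to 11189 and 11280 TPM over 4 genes and were detected in full.

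The annotation lists 59 transcripts for the 10 genes, of which Lum and Dpt have 1 each. For all 10 genes the same transcript led in both libraries and both quantifications, which the annotation fixed for Lum and Dpt. The leader held over 50% of the gene's TPM in both tables for 7 of the 10, Lum and Dpt among them. Neither count was made over all genes. Fn1, Postn and Ddr2 were the others, with leading shares in the first quantification of 23.3% ± 1.99, 44.6% ± 2.44 and 39.5% ± 13.9. These shares rest on the estimator's split of reads among overlapping transcripts.

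**Figure D3:**
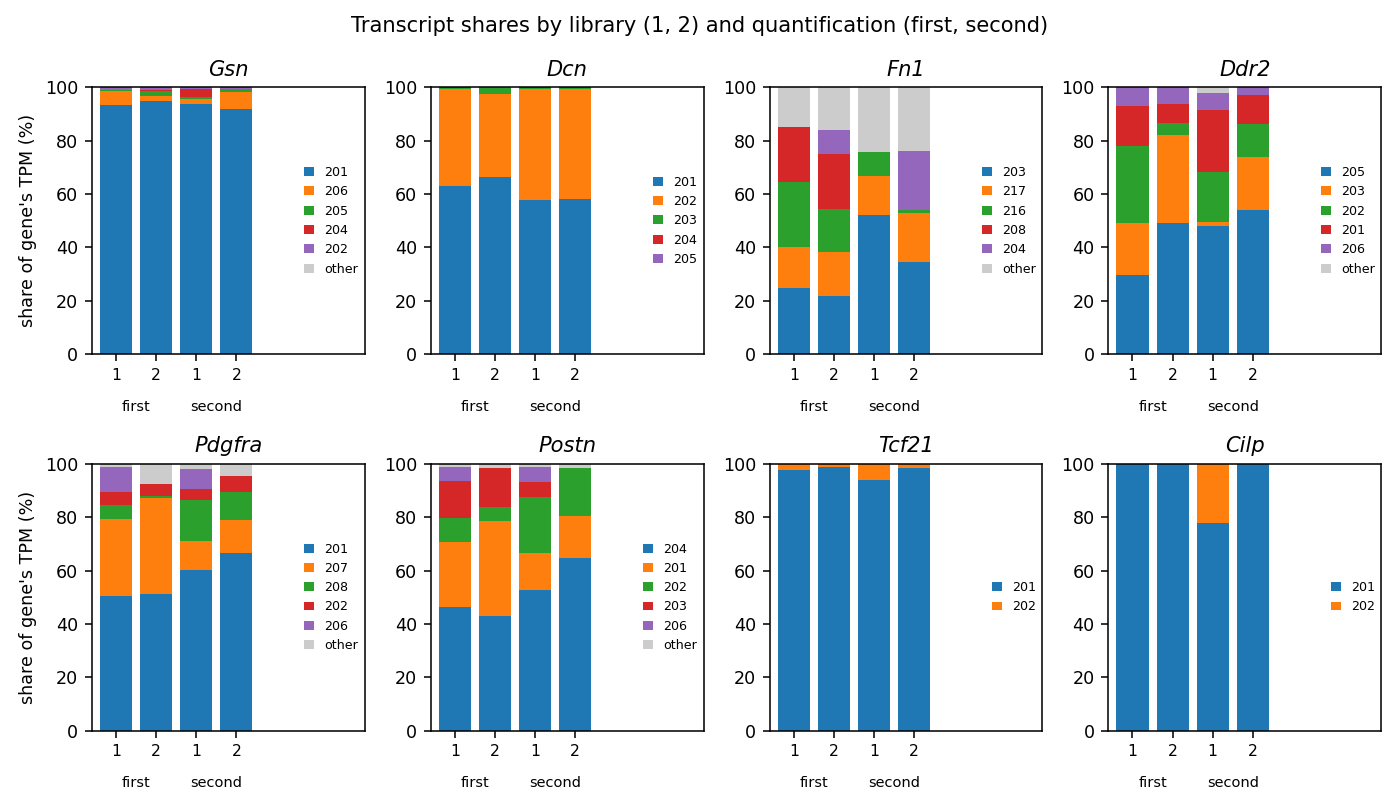
Stacked bars give each transcript's share of its gene's TPM for the 8 marker genes with more than 1 annotated transcript; within a panel the left pair of bars is the first quantification and the right pair the second, with library 1 before library 2. Colours are transcript numbers, up to 5 per gene, and grey is the rest. Gsn and Tcf21 are nearly uniform, while Fn1, Postn and Ddr2 divide among several transcripts.

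Gsn is read from alternative starts, and the start decides whether gelsolin stays in the cell or is secreted. Gsn-201 starts at 35282380, 26 kb inside the gene, and encodes 780 codons, beginning with the signal peptide of secreted gelsolin. Gsn-205, an upstream-start transcript of the cytoplasmic form, encodes 731 codons. Gsn-201 held 94.2% ± 1.04 of Gsn TPM by the first quantification and 92.7% ± 1.34 in the second. The 5 transcripts from the upstream start region held 4.87% ± 1.17 and 6.72% ± 1.42. The coding part of the first exon of Gsn-201, at chr2:35282464-35282601, plus strand, is shown because it opens the secreted form, with the start codon in capitals, from GENCODE M21.
Gsn-201 first coding exon: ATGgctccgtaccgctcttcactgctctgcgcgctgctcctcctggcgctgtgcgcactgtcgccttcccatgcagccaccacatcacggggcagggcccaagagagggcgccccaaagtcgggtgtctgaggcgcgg
Sequence before 2 starts, from the RefSeq promoter table (GRCm38.p6), is shown next so that the regions ahead of the strong and the weak start can be read side by side. Another RefSeq window of Gsn, at chr2:35266494-35266743, with 2 CANNTG matches and 56% G and C, is not printed because no GENCODE start region of Gsn lies there. The strong internal start has chr2:35282130-35282379 before it and the weak upstream start chr2:35256109-35256358, both on the plus strand, and capitals mark the E-box letters CANNTG, the general motif of basic helix-loop-helix factors.
Gsn internal start: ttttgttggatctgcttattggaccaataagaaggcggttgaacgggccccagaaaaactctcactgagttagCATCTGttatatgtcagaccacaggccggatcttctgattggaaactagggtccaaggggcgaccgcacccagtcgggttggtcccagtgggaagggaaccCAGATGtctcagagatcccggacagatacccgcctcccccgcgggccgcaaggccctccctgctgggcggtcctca
Gsn upstream start: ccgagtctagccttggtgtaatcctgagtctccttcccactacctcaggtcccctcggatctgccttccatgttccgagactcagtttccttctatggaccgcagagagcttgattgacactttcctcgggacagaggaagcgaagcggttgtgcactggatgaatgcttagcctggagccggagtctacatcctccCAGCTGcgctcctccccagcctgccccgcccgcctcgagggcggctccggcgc
The internal window holds 2 matches in 250 bases with 57.6% G and C, and the upstream window holds 1 with 60.8%. CANNTG reads the same way on both strands as a pattern and is common, occurring in 72.3% of 32851 RefSeq windows of 300 bases. It occurs in 7 of the 10 windows of the 7 marker genes that have an entry, and Dcn, Lum and Fn1 have none. CAGCTG, which is 1 form of CANNTG, occurs in 4 of the 10 windows and in 16.3% of all. TATAAA, the TATA box letters, read on both strands, occur in 3 of the 10 and in 13.6% of all. Dpt has 7 CANNTG matches, the most of the 10 windows, and the windows of Tcf21 and Postn have 0. These matches are letters in a window and were not measured as binding.

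Dcn is also read from alternative first exons, without any change of protein. Dcn-201, from the first start at 97479609, held 64.6% ± 2.41 of TPM by the first quantification and 57.9% ± 0.484 in the second. Dcn-202, from a later start region that begins at 97482367, has the same 354 codons and held 33.8% ± 3.78 and 41.4% ± 0.526. Both tables put Dcn-201 higher in each library.

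Fn1 RNA carries 3 regions of alternative splicing, which set what the protein binds. Extra domains B and A are whole fibronectin type III repeats that embryonic and healing tissue includes and that plasma fibronectin lacks. Their exons are shown because the results below are their inclusion, in capitals with 12 coding bases on each side in lower case, read from the GENCODE M21 transcript Fn1-201 on the minus strand. Exon 25, for extra domain B, has 273 bases at chr1:71613763-71614035, and exon 33, for extra domain A, has 270 bases at chr1:71603660-71603929.
Fn1 exon 25: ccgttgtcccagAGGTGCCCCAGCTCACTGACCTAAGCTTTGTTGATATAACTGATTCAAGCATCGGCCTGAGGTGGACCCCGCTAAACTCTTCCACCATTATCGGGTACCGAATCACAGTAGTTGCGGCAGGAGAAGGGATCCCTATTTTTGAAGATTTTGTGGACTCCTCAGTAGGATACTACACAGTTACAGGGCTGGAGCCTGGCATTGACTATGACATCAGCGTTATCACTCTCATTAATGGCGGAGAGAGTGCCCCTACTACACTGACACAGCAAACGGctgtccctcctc
Fn1 exon 33: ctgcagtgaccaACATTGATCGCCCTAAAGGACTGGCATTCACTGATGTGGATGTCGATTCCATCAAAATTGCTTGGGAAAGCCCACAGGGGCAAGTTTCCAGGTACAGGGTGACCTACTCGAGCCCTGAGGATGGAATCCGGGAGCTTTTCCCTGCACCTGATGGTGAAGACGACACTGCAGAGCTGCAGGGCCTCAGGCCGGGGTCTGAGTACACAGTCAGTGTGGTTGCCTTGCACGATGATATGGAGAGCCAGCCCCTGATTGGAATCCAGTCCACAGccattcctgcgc
Among the 7 Fn1 transcripts that span all 3 regions, those with exon 33 held 12.9% of TPM in library 1 and 15.9% in library 2, and 12.1% and 16.1% by the second quantification. Exon 25 was rarer, at 1.38% in library 1 and 8.63% in library 2, and at 0.907% and 5.48% by the second quantification. Fn1 was thus mostly of the form without either extra domain, and both exons were higher in library 2 in both tables. Lengths of these exons are multiples of the codon, at 91 and 90 codons, so the reading frame continues across them.
The variable region near the end of fibronectin contains a binding site for integrin alpha 4 beta 1, and is kept whole, shortened or left out. The 120-codon form held 48.0% ± 2.47 of TPM, the 95-codon form 23.3% ± 3.13 and the form without it 28.8% ± 5.60. By the second quantification these forms held 64.4% ± 4.14, 27.4% ± 5.64 and 8.23% ± 9.79. Both tables give the order of the 120-codon form over the 95-codon form, and differ on the form without the region. The leading transcript, Fn1-203, has 2296 codons with the 120-codon region and neither extra domain. Fn1-208, a short transcript of 1350 bases, held 20.5% ± 0.0652 of Fn1 TPM by the first quantification and 0.0308% ± 0.0436 in the second.

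Postn is spliced within its C-terminal region, where exons are included or skipped in changing combinations. Exon 17 of Postn-202 has 81 bases at chr3:54380412-54380492 and exon 21 has 84 bases at chr3:54385671-54385754, plus strand, and they are shown with the same capitals and source because the 4 full-length forms differ by them.
Postn exon 17: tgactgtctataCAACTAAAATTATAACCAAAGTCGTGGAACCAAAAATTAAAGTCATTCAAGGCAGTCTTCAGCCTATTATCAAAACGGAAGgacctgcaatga
Postn exon 21: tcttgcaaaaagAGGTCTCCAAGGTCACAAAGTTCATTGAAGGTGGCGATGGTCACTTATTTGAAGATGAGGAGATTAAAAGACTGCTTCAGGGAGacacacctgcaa
Exon 17 was included in 24.6% of the TPM of the 4 forms in library 1 and 20.4% in library 2, and in 28.7% and 18.4% by the second quantification. Exon 21 was included in 35.8% in library 1 and 41.5% in library 2, and in 37.5% and 34.5% by the second quantification. The form with neither, Postn-204 with 783 codons, led at 46.4% ± 4.18, and at 61.0% ± 6.41 by the second quantification. Postn-201, with exon 21 only, held 31.1% ± 7.14 and 15.5% ± 0.807. Postn-202, with both exons and 838 codons, held 7.60% ± 3.10 and 20.5% ± 2.95. The tables were close on the inclusion of each exon and differed more on how the exons combine.

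**Figure D4:**
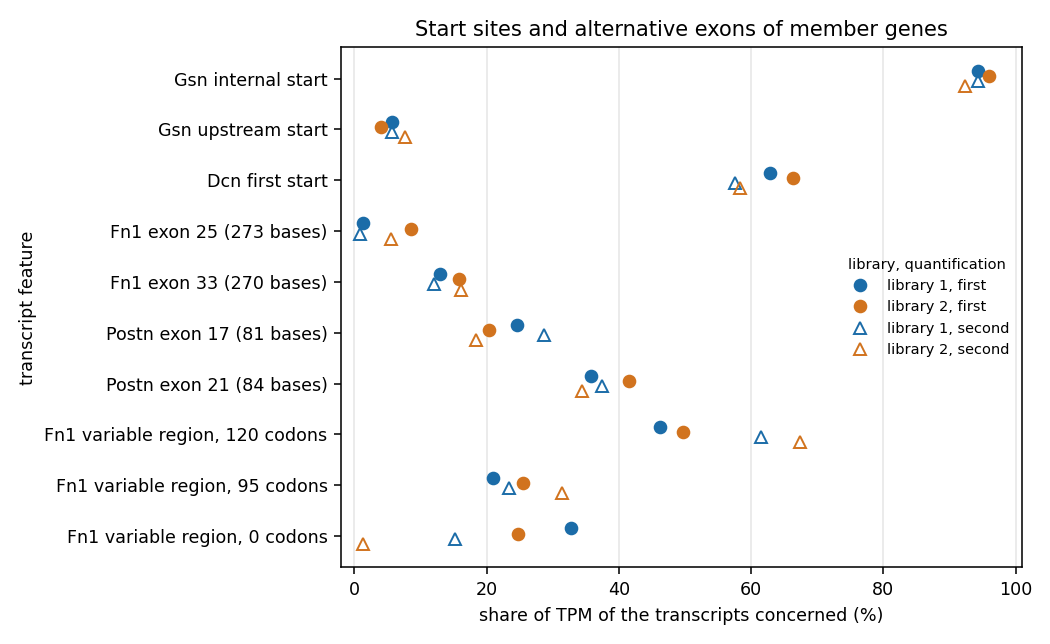
Share of TPM, among the transcripts that span each feature, that uses a given start or contains a given exon in Gsn, Dcn, Fn1 and Postn; filled circles are the first quantification, open triangles the second, blue library 1 and orange library 2. The internal Gsn start lies between 92.3% and 95.95% in every table, Fn1 exon 25 stays below 8.7% and the Fn1 form without the variable region spreads between 1.31% and 32.7%.

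The receptor genes divided among transcripts with less certainty. Pdgfra-201, the 1089-codon receptor, led with 50.8% ± 0.404, and 63.5% ± 4.37 by the second quantification. Pdgfra-207, a transcript of 1561 bases annotated as non-stop decay, that is lacking a stop codon, held 32.5% ± 5.33 by the first quantification and 11.6% ± 0.970 by the second. It had 103.04 and 96.66 counts, which TPM scales for its short length. For Ddr2, the leading Ddr2-205 held 29.7% in library 1 and 49.3% in library 2, against 48.1% and 53.9% by the second quantification. Ddr2-202, which has an internal start and encodes the same 854 codons, held 28.5% in library 1 and 4.68% in library 2, against 18.4% and 12.2%. Tcf21-201 (179 codons) held 98.3% ± 0.774 of Tcf21 TPM, and Cilp-201 (1250 codons) held 100% in both libraries of the first quantification. By the second, Cilp-201 held 77.9% in library 1 and 100% in library 2, and the remaining 22.1% in library 1 went to Cilp-202, annotated as nonsense-mediated decay.

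Genes that overlap the markers took few reads from these positions. The 8 overlapping genes, 6 of them on the opposite strand, had at most 9 counts in a library, for an antisense gene at Dpt.

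Beside Pdgfra, 5 of 6 genes of its ligands and related receptors were detected. Pdgfra was 0.695 ± 0.0804 times as high as Pdgfrb, the receptor of mural cells, which had 9.52 ± 0.516 TPM. The ligand genes Pdgfb and Pdgfa stood at 9.54 ± 0.318 and 6.08 ± 0.361 TPM, and Pdgfd at 3.75 TPM in both libraries. Only Pdgfrl missed the threshold, at 0.805 ± 0.106. None of the 5 passed 2-fold between libraries.

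Dcn led the 16 small leucine-rich proteoglycan genes with 47.4% ± 0.875 of their summed TPM, and Lum held 5.58% ± 0.119. Of the other 14 genes 7 were detected. Dcn was 2.03 ± 0.0361 times as high as Bgn, which encodes biglycan, the nearest relative of decorin, and had 56.5 ± 2.11 TPM. Ogn, which encodes osteoglycin, had 27.7 ± 1.35 TPM, Prelp had 8.51 ± 0.75 and Podn had 8.31 ± 0.0707.

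Cells hold fibronectin through integrins and syndecans. Of the 10 integrin and syndecan genes listed, 8 were detected, led by Itgb1, the common beta subunit, at 104 ± 0.75 TPM. Itgb5, Itgav and Itgb6 followed at 28.1 ± 1.17, 11.2 ± 0.962 and 9.95 ± 0.460 TPM. By the second quantification Itgav was below Itgb6, at 7.05 ± 0.00766 TPM against 9.66 ± 0.373. Itgb3 and Itga4 were under the threshold, at 0.590 ± 0.141 and 0.50 ± 0.184. Itga4 is the alpha subunit that binds the Fn1 variable region.

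The collagen genes listed beside Ddr2 were detected in full, 9 of 9 with Ddr1 counted among them. Col3a1 had 24.0 ± 0.0919 TPM, but 36.5 ± 0.978 by the second quantification. Col1a2 and Col1a1, the chains of type I collagen, had 19.3 ± 0.0990 and 12.8 ± 0.0566 TPM, and Col6a2 had 12.6 ± 0.926. Fn1 was 0.792 ± 0.152 times as high as Col1a1. Ddr2 was 0.725 ± 0.0507 times as high as its relative Ddr1, a receptor best known from epithelium, which had 10.1 ± 1.10 TPM. In both quantifications Ddr2 was the lower of the pair.

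Gsn held 61.5% ± 0.385 of the TPM of the 8 genes of the gelsolin family, which share its actin-binding repeats. Of the other 7 genes 3 were detected. Gsn was 2.46 ± 0.0897 times as high as Svil, which encodes the membrane-associated protein supervillin and had 90.1 ± 1.17 TPM. Flii had 44.3 ± 3.32 TPM and Capg 2.79 ± 0.226 TPM. Scin, Vil1, Vill and Avil were under the threshold.

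Tcf21 was low among the transcription factors with which it is studied, 9 of 10 of which were detected. The cardiac factors Gata4, Tbx20 and Gata6 had 38.7 ± 2.52, 25.1 ± 2.89 and 17.7 ± 1.5 TPM. Tcf21 was 0.0712 ± 0.00470 times as high as Tcf4, an E protein, the class of partner with which Tcf21 binds DNA, which had 36.1 ± 3.38 TPM. Tcf21 stood above the epicardial factors Wt1 and Tbx18, by 1.66 ± 0.0534 and 2.13 ± 0.0961 times. Msc missed the threshold, at 0.600 ± 0.297.

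Among matricellular genes 8 of the 11 listed beside Postn and Cilp were detected. Postn was 0.0455 ± 0.00211 times as high as Sparc, which led at 94.7 ± 0.75 TPM, and Sparcl1 had 67.8 ± 4.46 TPM. Ccn1 and Ccn2 had 22.3 ± 2.83 and 17.4 ± 0.382 TPM. Postn was 0.770 ± 0.0901 times as high as Tgfbi, which encodes the nearest relative of periostin and had 5.61 ± 0.354 TPM. Cilp had 0.70 and 0.54 TPM in libraries 1 and 2, against 0.98 and 1.09 TPM for Cilp2, the other gene of its family, which missed the threshold in library 1. Spp1 and Tnc were under it in both.

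Other fibroblast genes were read in a resting and an activated list. Of 15 genes of resting fibroblasts 14 were detected, and while the 10 markers had a median of 8.79 ± 0.965 TPM, these 15 had 14.9 ± 0.127 TPM. Gpx3, an extracellular antioxidant enzyme, had 72.9 ± 12.3 TPM, Ly6a 32.5 ± 0.134, Cd34 25.6 ± 0.0636 and Htra3 20.6 ± 2.54, and only Vit was under the threshold, at 0.470 ± 0.113. Ly6a and Cd34 are also made by endothelium. Of 11 activated genes 4 were detected, with a median of 0.885 ± 0.163 TPM. Acta2, the smooth muscle actin of myofibroblasts, had 23.8 ± 1.90 TPM, and vessel muscle makes it too. Mfap4, Comp and Meox1 followed at 3.46 ± 0.134, 2.25 ± 0.283 and 1.80 ± 0.262 TPM. Cthrc1, a gene of the healing infarct picked out after its values were seen, had 0 counts in both libraries, which allows up to 0.0756 and 0.0812 CPM (counts scaled to the library total) at a floor of 3 counts. None of the 14 resting and 5 activated genes above the low-value filter passed 2-fold between libraries, and the other genes of these lists were not put to that rule.

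**Figure D5:**
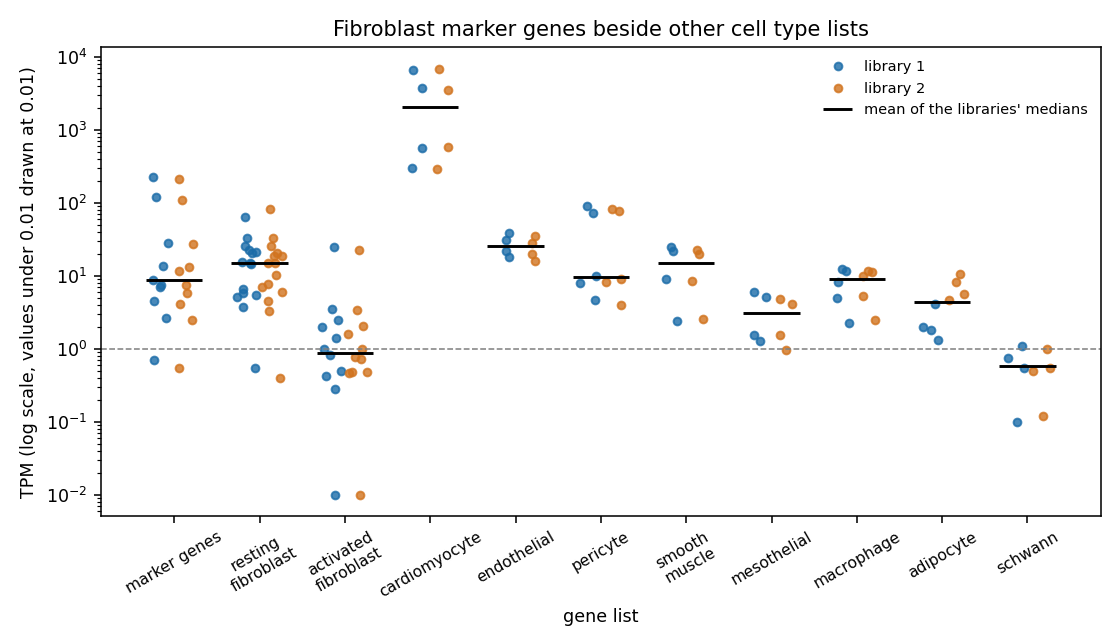
TPM on a log axis of every gene in the marker set and in 10 other lists; blue points are library 1, orange points library 2, black lines the mean of the medians in the libraries, and the dashed line is 1 TPM. The marker genes have a median of 8.79 TPM, resting fibroblast genes 14.9 and activated genes 0.885, while cardiomyocyte genes lie near 2087, and the adipocyte genes sit higher in library 2 (29.16 TPM summed, against 9.14 in library 1).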

How the data were processed

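Total RNA, 300 ng per library, was sequenced from heart after reduction of ribosomal RNA, with a directional kit and spike-ins, per the labels. The genome was mm10 with GENCODE M21, per the deposited readme. The aligner and quantifiers are not given in the sources used. The deposited gene and transcript tables give expected counts, TPM, FPKM and, as another measure, credibility bounds on TPM, per the file headers. The deposited second transcript table gives estimated counts and TPM, and was summed per gene here. Symbols and positions came from GENCODE M21, sequences from its transcripts or RefSeq.

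Detection meant at least 1 TPM in both libraries. Ratios used log2(TPM + 1), for genes whose rounded expected counts reached 10 in either library and whose TPM averaged 1 or more. Intervals are exact and conditional on a gene's total, and cover counting error only. With 1 group there was no contrast to test, and no p-value is given. The interval step and the 2-fold rule were run on simulated counts with sampling noise only, which is less than these libraries showed. There the rule used CPM in place of TPM. Shares of exons and starts sum the TPM of the transcripts that hold them.

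Members and the 17 context lists were chosen with earlier results of these data known. Text names all 10 members, up to 4 detected genes per list by mean TPM, those under 1 TPM where 5 or fewer, and transcripts that lead or hold 10% of a gene. Relatives set beside a member were named outside this rule, after values were seen, as was Cthrc1. Alternatives were the second quantification, FPKM, other scalings (edgeR 4.0.16 TMM, DESeq2 1.42.0 size factors, spike-ins), pseudocounts, thresholds and single libraries. Python 3.11.15, scipy 1.17.1, pandas 2.3.3 and R 4.3.3 were used.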

Additional observations from a re-analysis of the deposited data

How the results depend on the processing

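Detection of 9 of the 10 genes held in each library taken alone and under every alternative run, except that 7 reached 5 TPM. Each library alone and every alternative run gave 1 leading transcript for all 10 genes, which the annotation fixed for Lum and Dpt. That count was not made over all genes. No marker passed 2-fold under any scaling run, and none passed 1.5-fold in the first quantification, where the log2 ratio of Fn1 was 0.35 (0.62 by the second). The median level of 8.79 TPM moved to 7.58 in the second quantification, 7.36 FPKM, and 15.5 TPM when scaled without the mitochondrial chromosome, and lay between 8.11 and 9.47 in single libraries. The median log2 ratio of -0.05 stayed negative except with counts scaled by spike-ins, where it was 0.04 beside 0.09 for all genes. There Gsn, Dpt, Lum, Postn and Tcf21 turned to higher in library 2. Ddr2 turned to lower under TMM and DESeq2 scaling, and Lum to higher in the second quantification. Pdgfra, Dcn and Cilp stayed lower and Fn1 higher in library 2 under all 7 alternatives for the ratio. No paired analysis was possible because the labels give 1 group. Depth limits Cilp and Tcf21, with about 100 counts or fewer. Splits among transcripts of Fn1, Postn, Ddr2, Pdgfra and Cilp depended on the quantification, and the cause was not tested.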
